A study of Mus musculus with 35 samples.

Results

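The transforming growth factor beta (TGF-beta) pathway was read through 10 genes: the ligands Tgfb1, Tgfb2 and Tgfb3, the receptors Tgfbr1 and Tgfbr2, the signal carriers Smad2, Smad3 and Smad4, the inhibitory Smad7, and Ctgf, the older symbol of Ccn2, which encodes connective tissue growth factor. They were chosen by symbol for their place in the pathway, 10 of the 22609 genes counted, and all 10 had enough counts to be tested in every comparison. The study sequenced messenger RNA of cells sorted from hind paw skin of C57 mice aged 8 to 16 weeks, 35 libraries in 9 groups, and set mice that received paclitaxel (PTX), a microtubule drug used against tumours, beside vehicle-treated mice. Males received 2 intraperitoneal injections of PTX at 2 mg/kg, given 1 day apart, and their skin was collected 6 days after the second. Controls were vehicle-treated males and vehicle-treated females; no PTX-treated females are among the groups.

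Immune cells were CD45+ cells of wild-type mice. Fibroblasts were tdTomato-positive cells of Col1a2-cre-ER/tdTom mice, so that the population holds the cells in which the inducible Cre of a collagen gene had been active. Keratinocytes were tdTomato-positive cells of K5-cre-ER/tdTom mice, marked through the promoter of a basal keratin. Cell type, mouse line and sort thus go together, and their parts in a difference between populations cannot be told apart. Immune and fibroblast groups had 4 libraries each, as did keratinocytes of vehicle females and PTX males, and keratinocytes of vehicle males had 3. The labels do not say that libraries of a group came from separate mice, so the p-values rest on the spread between libraries, and that spread may be technical in part or whole.

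TGF-beta ligands are secreted in a latent form, held by their own propeptide and by latent TGF-beta binding proteins, and are set free by integrins and proteases. The active ligand binds the type II receptor, Tgfbr2, which phosphorylates the type I receptor, Tgfbr1; this phosphorylates Smad2 and Smad3, which join Smad4 and enter the nucleus. Smad7 is induced by the pathway and blocks the type I receptor, and Ctgf is a classic target gene that encodes a matrix protein. In skin the pathway is known for driving matrix production by fibroblasts, for restraining keratinocyte growth and for damping immune responses.

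The 250 bases before the start site are shown for Tgfb1 and Tgfb2, ligand genes with unlike levels in fibroblasts, and for Tgfbr2, the receptor gene whose level is followed in all 3 populations, since their motif content differs. The sequences are RefSeq's on GRCm38.p6, written 5′ to 3′ along the gene's strand. Capitals mark a TATA box (TATAAA, on the gene's strand), Smad-type boxes (CAGAC or its complement GTCTG) and GC boxes (GGGCGG or its complement CCGCCC), which do not overlap one another in these windows.
Tgfb1, chr7:25686752-25687001, plus strand: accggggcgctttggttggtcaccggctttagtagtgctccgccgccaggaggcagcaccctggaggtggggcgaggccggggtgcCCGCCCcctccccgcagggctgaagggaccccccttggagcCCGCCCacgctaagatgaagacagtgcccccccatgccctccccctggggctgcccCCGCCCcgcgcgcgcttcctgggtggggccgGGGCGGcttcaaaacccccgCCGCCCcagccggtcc
Tgfb2, chr1:186705990-186706239, minus strand: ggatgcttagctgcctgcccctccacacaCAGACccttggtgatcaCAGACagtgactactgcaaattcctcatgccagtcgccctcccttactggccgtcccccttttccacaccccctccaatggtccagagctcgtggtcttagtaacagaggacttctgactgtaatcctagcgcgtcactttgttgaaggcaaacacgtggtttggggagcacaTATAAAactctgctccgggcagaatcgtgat
Tgfbr2, chr9:116175364-116175613, minus strand: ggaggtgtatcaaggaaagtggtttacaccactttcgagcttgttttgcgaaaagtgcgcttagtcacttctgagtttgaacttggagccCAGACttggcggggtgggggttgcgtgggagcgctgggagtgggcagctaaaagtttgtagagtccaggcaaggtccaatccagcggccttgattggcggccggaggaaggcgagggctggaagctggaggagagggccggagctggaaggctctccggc
The Tgfb1 window is 75.2% G and C and holds 5 GC boxes and none of the other motifs. The Tgfb2 window is 53.6% G and C, with 1 TATA box and 2 Smad-type boxes, and the Tgfbr2 window is 58.4% G and C with 1 Smad-type box. Over 32851 mouse promoters of the same length the median was 52.4% G and C, and 7.59% held TATAAA, 42.2% a Smad-type box and 32.7% a GC box. A match of letters describes the window and says nothing of binding.

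Immune libraries held 13847475 to 18979776 gene counts, fibroblast libraries 13359088 to 20809036 and keratinocyte libraries 6518070 to 12055718, apart from keratinocyte vehicle female replicate 2 with 988712. Each sort gene was highest in the libraries of its own population but was also read in others. Ptprc, which encodes CD45, was at 359.6 to 875 CPM (counts scaled to library size) in immune libraries and at most 6.79 CPM in fibroblast libraries. In keratinocyte libraries it was at 155 ± 32 CPM in PTX males against 0.484 ± 0.116 CPM in vehicle males. Col1a2 was at 3013 to 12967 CPM in fibroblast libraries, 794 ± 332 CPM in immune vehicle males and 1988 ± 754 CPM in keratinocyte PTX males. Krt5 was at 903 to 6372 CPM in keratinocyte libraries and 185 ± 269.5 CPM in immune vehicle males. Other cell types were also read, and unevenly between groups. Summed over 8 fibroblast markers, immune libraries held 90.7 to 407 CPM in vehicle females, 4189.6 to 10032 CPM in vehicle males and 234 to 1505 CPM in PTX males. Keratinocyte libraries of PTX males held 11094 to 15233 CPM of fibroblast markers against 85.8 to 483 CPM in vehicle males, 1767 to 2506 CPM of 8 endothelial markers against 0.679 to 320.4 CPM, and 785 to 1071 CPM of 8 immune markers against 8.97 to 56.4 CPM. They also held 1720.5 to 2797 CPM of 8 pericyte and smooth muscle markers against 50.3 to 1152 CPM, and 23.5 to 2240.3 CPM of 8 skeletal muscle markers against 0.456 to 1.7 CPM. Their 8 keratinocyte markers summed to 3023 to 9948 CPM against 20178 to 23021 CPM.

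Levels below are CPM scaled over all 35 libraries, as mean ± SD (n = 4 per group, 3 for keratinocytes of vehicle males, and 8, 8 and 7 for vehicle immune cells, fibroblasts and keratinocytes). Log2 fold changes come from edgeR's quasi-likelihood test with Benjamini-Hochberg adjustment over all genes tested, with 0.05 as the threshold. Their standard errors (SE) were derived as the size of the change over the square root of the test's F statistic. These SE are approximate, the more so where a group held few reads. In bulk samples, fewer cells that make a gene and less of its RNA per cell cannot be told apart. Many member values were low: 41 of 110 keratinocyte values were under 1 CPM (37.3%, against 46.6% over all genes tested), as were 19 of 120 immune values (15.8%, against 31.1%) and 15 of 120 fibroblast values (12.5%, against 40.2%). Levels are compared between different genes only after division by exon length, as CPM per kilobase.

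**Figure D1:**
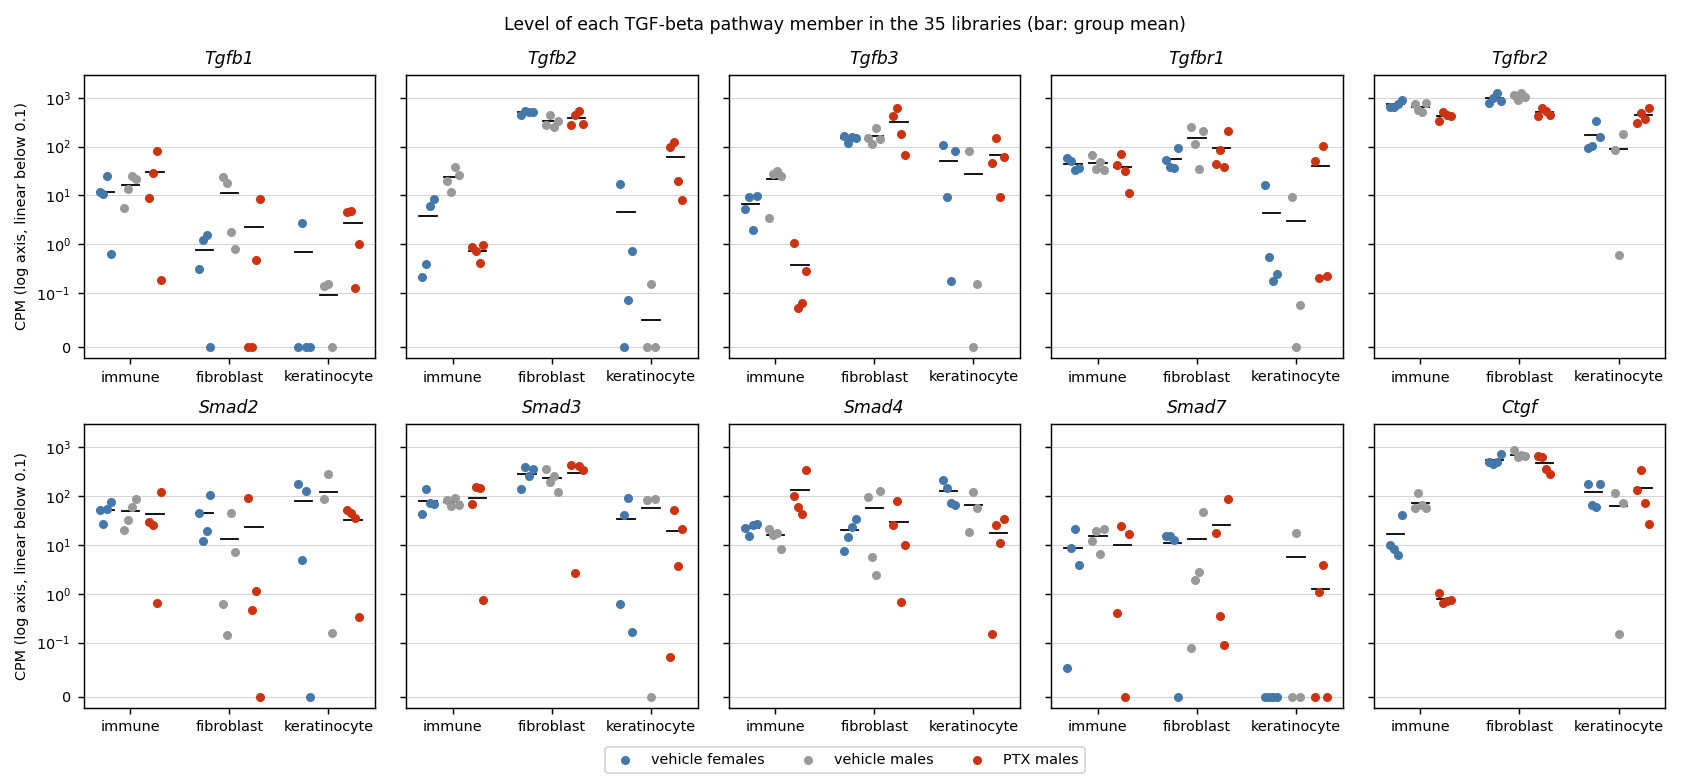
CPM of the 10 genes (y axis, log scale that is linear below 0.1) in each of the 35 libraries, by sorted population (x axis) and group (colour), with the group mean as a bar. Tgfb2 and Ctgf sit highest in fibroblasts in every group, Ctgf of immune PTX males lies between 0.652 and 1.03 CPM, and Tgfb1, Smad2 and Smad7 scatter widely within groups.

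In vehicle skin, Tgfb2 was higher in fibroblasts than in either other population, Tgfb3 was higher in fibroblasts than in immune cells, and Tgfb1 was higher in immune cells than in keratinocytes. Per kilobase, fibroblasts held 80.3 ± 21.3 CPM of Tgfb2, 45.8 ± 11.8 of Tgfb3 and 2.74 ± 4.34 of Tgfb1 (SD, n = 8 for each). Immune cells held 6.52 ± 4.12 CPM per kilobase of Tgfb1, 4.19 ± 3.51 of Tgfb3 and 2.69 ± 2.59 of Tgfb2 (n = 8), which overlap one another. Keratinocytes held 11.9 ± 14.2 CPM per kilobase of Tgfb3, 0.499 ± 1.24 of Tgfb2 and 0.199 ± 0.47 of Tgfb1 (n = 7).

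**Figure D2:**
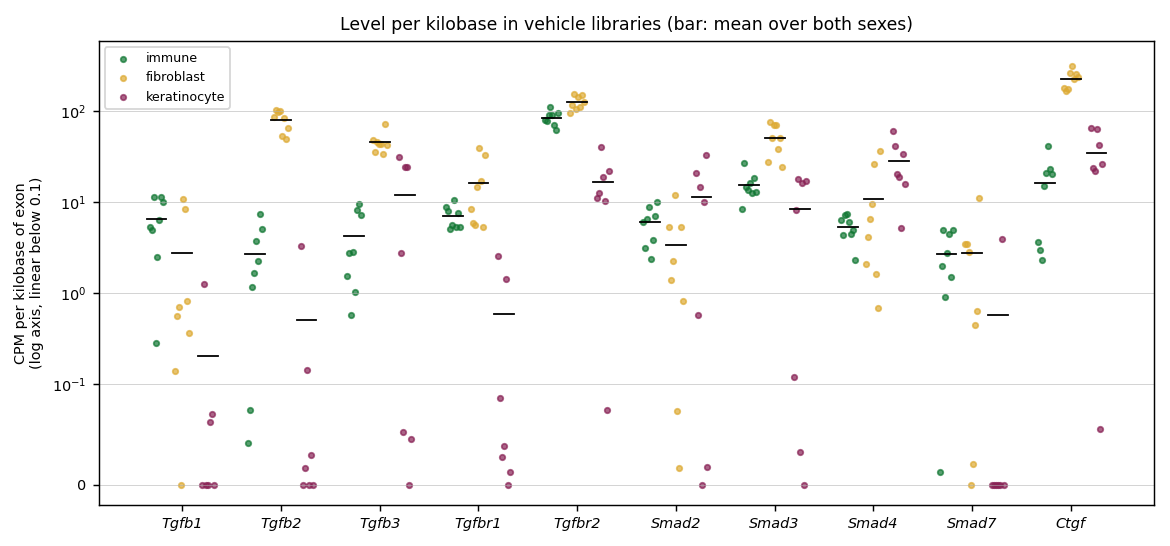
CPM per kilobase of exon (y axis, log scale that is linear below 0.1) of each gene in the 23 vehicle libraries, by population (colour), with the mean over both sexes as a bar. The fibroblast points of Tgfb2 and Ctgf stand above all immune and keratinocyte points, and those of Smad4 and Smad7 do not.

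Against fibroblasts, 3 of the 10 genes were lower in vehicle immune cells and 0 were higher, where 7.22% of the 14459 genes tested were lower and 12.2% higher. Tgfb2 stood at 14 ± 13.5 CPM in immune cells and 417 ± 111 CPM in fibroblasts (log2 difference -5.41 ± 0.87 SE, edgeR adjusted p = 9.17e-06). Tgfb3 stood at 14.2 ± 11.9 and 155 ± 39.96 CPM (-3.7 ± 1 SE, adjusted p = 0.00631), and Ctgf at 45.1 ± 37.1 and 634 ± 141 CPM (-4.17 ± 0.65 SE, adjusted p = 5.34e-06). None of the 3 overlapped between the populations, where 3.82% of genes lay lower without overlap, and all 3 passed without any 1 library. With vehicle males alone, Tgfb3 did not pass.

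Keratinocytes held less than fibroblasts of 5 genes: Tgfb2, Tgfbr1, Tgfbr2, Smad7 and Ctgf, where 18.5% of all genes tested were higher in fibroblasts. They also held less than immune cells of 5: Tgfb1, Tgfb2, Tgfbr1, Tgfbr2 and Smad7, where 21.5% of all genes were higher in immune cells. Vehicle immune libraries also held the fibroblast markers given above, and their part in these calls was not tested. No member was called higher in keratinocytes by edgeR, where 8.96% of genes were higher than in fibroblasts and 6.6% higher than in immune cells. Without overlap, 6.38% of genes lay higher in fibroblasts and 10.2% higher in immune cells than in keratinocytes, as did 6 and 2 members. Leaving out 1 library moved the number of members called from 5 to between 4 and 6 against fibroblasts and between 2 and 6 against immune cells.

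Tgfb1 encodes the ligand best known from platelets and leukocytes. In immune cells it read 11.5, 10.8, 24.7 and 0.616 CPM in vehicle females, 5.45, 13.7, 24.7 and 21.9 CPM in vehicle males, and 8.83, 28.7, 81.9 and 0.187 CPM in PTX males. The 3 immune groups overlapped, with 1 low library in each of the female and PTX groups. The PTX change in immune cells was 0.76 ± 1.38 SE on the log2 scale (edgeR adjusted p = 0.913).

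In fibroblasts Tgfb1 read 0.303, 1.22, 1.52 and 0 CPM in vehicle females, 23.8, 18.3, 1.77 and 0.794 CPM in vehicle males and 0, 0, 0.478 and 8.58 CPM in PTX males. In keratinocytes it read 0, 2.75, 0 and 0 CPM in vehicle females, 0.136, 0.152 and 0 CPM in vehicle males and 4.63, 4.84, 0.124 and 1.01 CPM in PTX males. Keratinocyte vehicle males held 3 reads in all, and PTX males 123, a ratio of 28.9 per unit of depth (95% interval 9.65 to 142, counting error only), with no call in the fit over replicates (adjusted p = 0.562). Vehicle immune cells held more Tgfb1 than vehicle keratinocytes, 14.2 ± 8.95 against 0.434 ± 1.02 CPM (edgeR adjusted p = 0.0223). That call ended without keratinocyte vehicle male replicate 1, 2 or 3 (adjusted p = 0.0578, 0.062 and 0.0732).

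Tgfb2, the ligand that needs a co-receptor to bind well, was read mainly in fibroblasts. Fibroblasts read 452, 535, 516 and 519.5 CPM in vehicle females, 282, 441, 257 and 337 CPM in vehicle males and 279, 445, 544 and 292 CPM in PTX males. PTX and vehicle males overlapped throughout (0.23 ± 0.35 SE on the log2 scale, edgeR adjusted p = 0.995).

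Immune libraries read Tgfb2 at 0.214, 0.382, 6.08 and 8.57 CPM in vehicle females, 19.5, 11.8, 38.8 and 26.3 CPM in vehicle males and 0.875, 0.724, 0.403 and 0.937 CPM in PTX males. All 4 PTX libraries lay below all 4 vehicle male libraries and inside the range of the vehicle females. The change against vehicle males was -5.13 ± 1.49 SE (edgeR adjusted p = 0.0601), and against vehicle females -2.44 ± 1.32 SE (adjusted p = 0.435). The first passed with DESeq2 (adjusted p = 6.29e-05), with library sizes alone (0.048) and with only these groups in the fit (0.0439).

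Keratinocyte libraries read Tgfb2 at 17.2, 0, 0.0876 and 0.734 CPM in vehicle females, 0, 0.152 and 0 CPM in vehicle males and 95.7, 123, 19.5 and 7.98 CPM in PTX males. The 4 PTX libraries lay above all 3 vehicle male libraries, where 8.86% of genes did so. They held 2936 reads against 1, a ratio of 2068 per unit of depth (95% interval 371 to 81706, counting error only). The fitted change rests on the prior count and is no bound, and it did not pass in edgeR (adjusted p = 0.205), while DESeq2 and limma voom called it (adjusted p = 6.68e-05 and 0.0117). The same 4 libraries held the markers of other cells given above: 5 of 8 fibroblast, 6 of 8 endothelial, 2 of 8 immune, 2 of 8 pericyte and smooth muscle (Rgs5 and Des) and 2 of 4 tested skeletal muscle markers (Acta1 and Des) were called higher in PTX males. The part of these cells in the Tgfb2 reads was not tested.

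Between vehicle fibroblasts and keratinocytes Tgfb2 stood at 417 ± 111 against 2.6 ± 6.45 CPM (edgeR adjusted p = 3.49e-08). Immune cells stood at 14 ± 13.5 CPM, above keratinocytes (adjusted p = 0.000579), but the direction turned with females alone (log2 difference -0.26, adjusted p = 0.935). Summed fibroblast markers were 90.7 to 407 CPM in immune libraries of vehicle females and 4189.6 to 10032 CPM in those of vehicle males. In keratinocyte libraries they were 163 to 1109 and 85.8 to 483 CPM in the same order, and their part in this call was not tested.

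Tgfb3, the third ligand, had its highest vehicle mean in fibroblasts and its lowest in immune cells. Fibroblasts read 162, 121, 157 and 147 CPM in vehicle females, 149, 115, 245 and 143 CPM in vehicle males and 417, 625, 181 and 67.3 CPM in PTX males. Replicates 1 and 2 of the PTX males lay above every vehicle library and replicate 4 below, and the change was 0.99 ± 0.59 SE on the log2 scale (edgeR adjusted p = 0.786). Summed pericyte and smooth muscle markers were at 1971, 3935, 224 and 661 CPM in PTX replicates 1 to 4, against 106 to 522 CPM in vehicle males and 382 to 1083 CPM in vehicle females, with 0 of 7 tested called. They were highest in the replicates that were highest in Tgfb3, and their part was not tested.

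Keratinocyte Tgfb3 split within groups: 107, 9.34, 0.175 and 83 CPM in vehicle females, 82.7, 0 and 0.154 CPM in vehicle males and 46.6, 149, 9.4 and 61.6 CPM in PTX males. The PTX change was 1.28 ± 2.22 SE (edgeR adjusted p = 0.975). Fibroblasts and keratinocytes did not overlap in vehicle skin, but the difference did not pass (2.14 ± 0.99 SE, adjusted p = 0.107) unless keratinocyte vehicle male replicate 1 was left out (6.19, adjusted p = 0.000292).

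In immune libraries Tgfb3 fell with PTX. It read 5.24, 9.24, 1.94 and 9.63 CPM in vehicle females, 3.45, 27.5, 32 and 24.4 CPM in vehicle males and 1.03, 0.0724, 0.0806 and 0.281 CPM in PTX males, so that every PTX library lay below all 8 vehicle libraries. The change against vehicle males was -5.92 ± 1.52 SE on the log2 scale (edgeR adjusted p = 0.0392). With PTX, 3 of the 10 genes were called in immune cells, 2 lower and 1 higher, where 5.51% of 12131 genes were called, 4.56% lower and 0.956% higher. The Tgfb3 call rested on single libraries: it held without vehicle male replicate 1 or PTX replicate 1 and was lost without any of the other 6, with adjusted p of 0.0878, 0.089 and 0.0758 without vehicle male replicates 2, 3 and 4 and 0.0535, 0.0503 and 0.0671 without PTX replicates 2, 3 and 4. Against vehicle females it did not pass (-4.12 ± 1.4 SE, adjusted p = 0.163). Nor did it pass against both vehicle groups together (-5.02 ± 1.41 SE, edgeR adjusted p = 0.0622), and 3 of 9 alternative settings in all called it. Of 8 fibroblast markers 5 were called lower in the same PTX libraries, with the sums given above, and their part in the Tgfb2 and Tgfb3 levels was not tested.

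Tgfbr2, the type II receptor that first binds the ligand, had the highest mean per kilobase of the 10 in vehicle immune cells and came after Ctgf in fibroblasts. Per kilobase, vehicle fibroblasts held 126 ± 21.4, immune cells 85 ± 15.6 and keratinocytes 16.5 ± 12.6 CPM (SD, n = 8, 8 and 7). Fibroblasts and immune cells were not called different by edgeR (-0.58 ± 0.44 SE for immune minus fibroblast, adjusted p = 0.483). Keratinocytes were lower than both, by 2.58 ± 0.5 SE on the log2 scale against immune cells (adjusted p = 0.000119) and by 3.15 ± 0.51 SE against fibroblasts (adjusted p = 8.03e-06).

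With PTX, Tgfbr2 lay lower in the immune and fibroblast libraries and higher in the keratinocyte libraries, and none of the 3 differences passed against vehicle males. Immune libraries read 662, 637, 743 and 912 CPM in vehicle females, 747, 573, 508 and 782 CPM in vehicle males and 327, 503, 449 and 416 CPM in PTX males. All 4 PTX libraries lay below all 8 vehicle libraries, a change of -0.73 ± 0.21 SE against vehicle males (edgeR adjusted p = 0.0543) and -0.87 ± 0.21 SE against vehicle females (adjusted p = 0.0499). Against vehicle males, 4 of the 10 genes did not overlap downwards and 1 upwards, where 10.4% and 4.03% of all genes did so. DESeq2 and library sizes alone called the immune change (adjusted p = 0.0202 and 0.014). Against both vehicle groups together it also passed (-0.8 ± 0.18 SE, edgeR adjusted p = 0.0298). In all, 4 of 9 alternative settings called it, vehicle females as control included. Summed fibroblast markers (4189.6 to 10032 CPM in vehicle males, 234 to 1505 CPM in PTX males) and endothelial markers (155 to 637 and 0.375 to 40.3 CPM) were lower in the same PTX libraries, and their part in the Tgfbr2 level was not tested.

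Fibroblasts read Tgfbr2 at 785, 974, 1257 and 878 CPM in vehicle females, 1167, 910, 1237 and 1042 CPM in vehicle males and 420.5, 614, 533 and 443 CPM in PTX males. Again each PTX library lay below each of the 8 vehicle libraries, where 1.75% of genes lay lower without overlap against vehicle males. The change was -1.12 ± 0.27 SE on the log2 scale (unadjusted p = 0.000538, edgeR adjusted p = 0.307), from 1089 ± 144 to 503 ± 88.8 CPM, and -1 ± 0.27 SE against vehicle females (adjusted p = 0.453). Of the 10 genes 0 were called in fibroblasts by edgeR, DESeq2 or limma voom, and Tgfbr2 alone had an unadjusted p under 0.05. Over all genes edgeR called 2 of 10857, or 0.0184%. In these PTX libraries the 8 fibroblast markers summed to 39994 to 58778 CPM against 61127 to 87855 CPM in vehicle males, with 1 of 8 called lower, and the part of this in the Tgfbr2 level was not tested.

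Keratinocytes read Tgfbr2 at 92, 104, 329 and 154 CPM in vehicle females, 84.9, 0.608 and 179.6 CPM in vehicle males and 301, 478, 360.2 and 629 CPM in PTX males. Vehicle male replicate 2 was far below the rest, and PTX males lay above all 3 vehicle males but overlapped vehicle females. The change was 2.39 ± 1.03 SE (unadjusted p = 0.0316, edgeR adjusted p = 0.28). Of the 10 genes, 0 were called in keratinocytes by edgeR, where 1.45% of 10939 genes were, and 2 (Tgfb2 and Tgfbr2) had an unadjusted p under 0.05. The markers of other cells in these PTX libraries moved with Tgfbr2 as with Tgfb2, and their part was not tested.

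**Figure D3:**
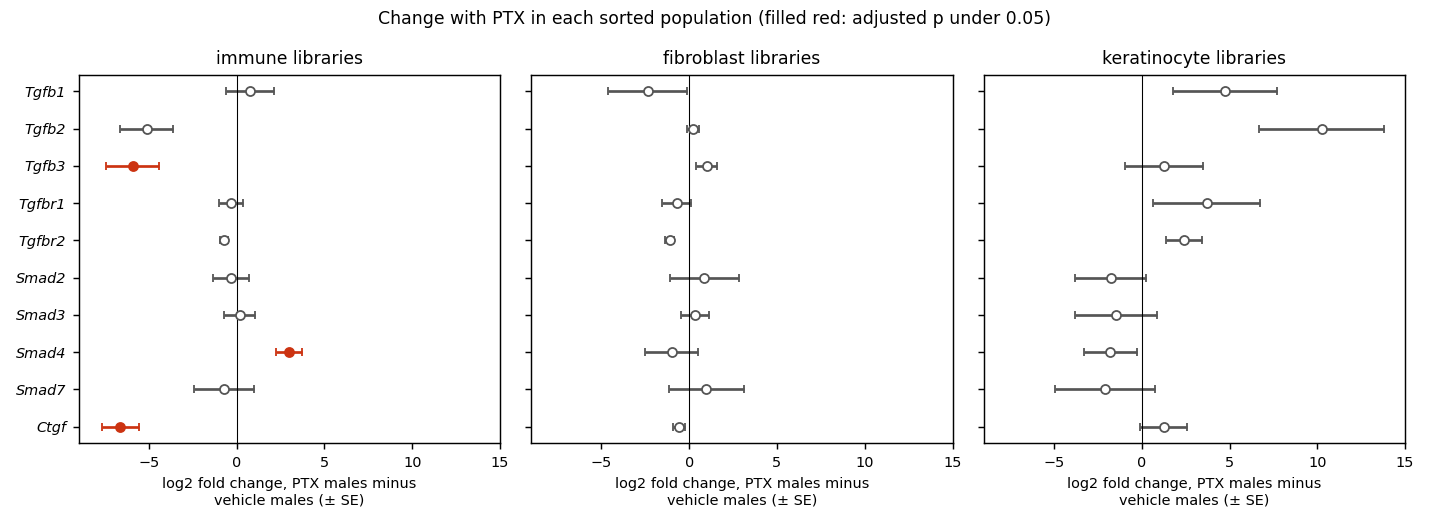
Log2 fold change of PTX males minus vehicle males (x axis, ± SE) of each gene (y axis) in the 3 populations, with filled red points where the edgeR adjusted p was under 0.05. Red points appear in immune libraries alone (Ctgf -6.62, Tgfb3 -5.92, Smad4 2.99), Tgfbr2 is negative in immune cells and fibroblasts and positive in keratinocytes, and the keratinocyte Tgfb2 point rests on 1 read in vehicle males.

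Tgfbr1, the type I receptor that passes the signal to the Smads, was lower per kilobase than its partner in every population, at 16.2 ± 13.3 CPM in fibroblasts, 7.03 ± 2.02 in immune cells and 0.586 ± 0.999 in keratinocytes (SD, vehicle, n = 8, 8 and 7). Vehicle keratinocytes held less than immune cells (3.76 ± 6.41 against 45.1 ± 13 CPM, edgeR adjusted p = 0.0182) and than fibroblasts (104 ± 85.1 CPM, adjusted p = 0.00435), with no overlap in either comparison. The call against immune cells ended without keratinocyte vehicle male replicate 2 or 3 (adjusted p = 0.0554 and 0.058).

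In immune libraries Tgfbr1 read 57, 50.8, 32.6 and 35.6 CPM in vehicle females, 67.3, 34.1, 49.2 and 33.8 CPM in vehicle males and 42.2, 71.2, 31.2 and 11.4 CPM in PTX males, with overlapping groups. Fibroblasts read 53.7, 37.8, 35.5 and 94 CPM, then 254, 111, 34.4 and 212 CPM, then 44.9, 84.4, 38.8 and 211 CPM in the same order of groups. Keratinocytes read 16.2, 0.549, 0.175 and 0.245 CPM, then 9.04, 0 and 0.0769 CPM, then 50.6, 0.198, 105 and 0.225 CPM. The PTX males of keratinocytes thus split into a high pair, replicates 1 and 3, and a low pair, replicates 2 and 4. The PTX changes were -0.34 ± 0.69, -0.71 ± 0.84 and 3.69 ± 3.04 SE in that order of populations (edgeR adjusted p = 0.92, 0.973 and 0.782).

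Of the receptor-regulated Smads, Smad3 had its highest vehicle mean in fibroblasts and Smad2 in keratinocytes. Per kilobase, Smad3 stood at 51.3 ± 20.1 CPM in vehicle fibroblasts, 15.5 ± 5.56 in immune cells and 8.48 ± 8.52 in keratinocytes, and Smad2 at 3.42 ± 4.11, 5.97 ± 2.73 and 11.4 ± 12.6 in the same order (SD, n = 8, 8 and 7). No difference of either gene between vehicle populations passed in edgeR. The nearest was Smad3 in fibroblasts over keratinocytes, 261 ± 102 against 43.2 ± 43.3 CPM (2.65 ± 1.07 SE, adjusted p = 0.0609), where no library overlapped, and it passed without keratinocyte vehicle female replicate 3 (3.19, adjusted p = 0.0369).

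Fibroblasts read Smad3 at 141, 389.9, 257 and 357 CPM in vehicle females, 361, 198, 261 and 123 CPM in vehicle males and 430.5, 2.72, 412 and 339 CPM in PTX males. Immune cells read 42.6, 138, 74.3 and 69.2 CPM, then 82.3, 63.7, 94.3 and 65.6 CPM, then 68.8, 154, 147 and 0.749 CPM. In both populations 1 PTX library, replicate 2 of the fibroblasts and replicate 4 of the immune cells, was far below the other 3. Keratinocytes read 0.61, 41.2, 91.9 and 0.163 CPM, then 82.3, 0 and 86.1 CPM, then 0.0735, 52.3, 3.8 and 21.2 CPM. The PTX changes were 0.31 ± 0.8, 0.17 ± 0.9 and -1.48 ± 2.35 SE in fibroblasts, immune cells and keratinocytes (edgeR adjusted p = 0.995, 0.975 and 0.971).

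Smad2 read 51.6, 27.2, 55.4 and 76.2 CPM in immune vehicle females, 20.5, 32.8, 60.01 and 86.9 CPM in vehicle males and 29.8, 25.3, 0.645 and 119.5 CPM in PTX males. Fibroblasts read 45.5, 12, 19.5 and 104 CPM, then 0.63, 0.144, 46 and 7.06 CPM, then 94.1, 0.473, 1.15 and 0 CPM. Keratinocytes read 182, 4.94, 127 and 0 CPM, then 87, 283 and 0.154 CPM, then 51.4, 45.4, 35.7 and 0.337 CPM. Except in fibroblasts of vehicle females, every group of the tdTomato populations held at least 1 library under 1 CPM beside others far higher. The PTX changes were -0.32 ± 1.01, 0.86 ± 1.98 and -1.78 ± 2.01 SE in that order of populations (edgeR adjusted p = 0.953, 0.995 and 0.908).

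Smad4, the shared partner of the signal Smads, rose with PTX in immune cells. It read 22.6, 15.5, 25.8 and 26.4 CPM in vehicle females, 21.4, 15.9, 17.7 and 8.21 CPM in vehicle males and 102, 61.5, 42.7 and 344 CPM in PTX males. All 4 PTX libraries lay above all 8 vehicle libraries, a change of 2.99 ± 0.74 SE on the log2 scale against vehicle males (edgeR adjusted p = 0.0342), from 15.8 ± 5.57 to 138 ± 139.7 CPM. Against both vehicle groups it was 2.76 ± 0.57 SE (adjusted p = 0.0211), and against vehicle females alone 2.52 ± 0.72 SE (adjusted p = 0.101).

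The Smad4 call was lost without any 1 vehicle male library (adjusted p = 0.0648, 0.0981, 0.0902 and 0.102 without replicates 1 to 4) or without PTX replicate 4, the highest, where the change was 1.96 (adjusted p = 0.115). It was lost as well with library sizes alone (2.55 ± 0.72 SE, adjusted p = 0.0574) and kept by DESeq2 (adjusted p = 3.65e-05). In all, 3 of 9 alternative settings called the Smad4 change, and the highest adjusted p among them was 0.203. In the same libraries 6 of 8 mast cell markers were called higher in PTX males, with summed levels of 3003 to 8435 CPM against 1476 to 2611 CPM in vehicle males and 5991 to 7719 CPM in vehicle females, and none of the 8 was at 0 in any of these groups. Their part in the Smad4 level was not tested.

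Fibroblasts read Smad4 at 7.39, 14.9, 23.1 and 34.4 CPM in vehicle females, 94.6, 5.76, 2.47 and 131 CPM in vehicle males and 25.7, 79.8, 0.669 and 9.99 CPM in PTX males. Keratinocytes read 220, 149, 73.8 and 67.4 CPM, then 18.5, 121 and 56.8 CPM, then 0.147, 25.5, 10.8 and 34.4 CPM. In keratinocytes the PTX males lay below all vehicle females and overlapped vehicle males (-1.79 ± 1.5 SE, edgeR adjusted p = 0.793). In vehicle skin the keratinocyte mean was the highest of the 3, 101 ± 67.7 CPM against 39.2 ± 47.6 in fibroblasts and 19.2 ± 6.08 in immune cells, and neither difference passed (adjusted p = 0.328 and 0.0725).

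Smad7, the feedback inhibitor, scattered widely within groups. Immune libraries read 0.0534, 8.67, 21.4 and 3.98 CPM in vehicle females, 12, 19.7, 6.56 and 21.6 CPM in vehicle males and 0.398, 24, 0 and 16.6 CPM in PTX males. Fibroblasts read 15.3, 15.3, 12.4 and 0 CPM, then 0.09, 1.94, 2.77 and 48.3 CPM, then 17.8, 0.355, 0.0956 and 85.9 CPM. The groups overlapped in both populations, with PTX changes of -0.71 ± 1.71 and 0.98 ± 2.12 SE (edgeR adjusted p = 0.939 and 0.995).

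No read of Smad7 was counted in the 4 keratinocyte libraries of vehicle females, which allows up to 0.089 CPM over the group (3 counts), and vehicle males read 0, 17.3 and 0 CPM, so 1 library held all 114 reads of that sex. PTX males read 0, 1.09, 3.86 and 0 CPM, 73 reads in all, and were called against neither vehicle males (edgeR adjusted p = 0.961) nor vehicle females (adjusted p = 0.396). Vehicle keratinocytes were called lower than immune cells (2.48 ± 6.55 against 11.7 ± 8.33 CPM, adjusted p = 0.0396) and than fibroblasts (12 ± 16.1 CPM, adjusted p = 0.038). The fitted log2 differences, 5.78 ± 2.14 and 5.88 ± 2.15 SE, depend on the prior count, since vehicle females held no read. Under 7 other settings the difference from immune cells ran 1.69 to 12.16 and 5 settings called it. The difference from fibroblasts ran 1.58 to 12.29 and 4 settings called it. The first call held without 6 of 15 single libraries and the second without 9 of 15. The highest adjusted p was 0.0888 for the first, without keratinocyte vehicle male replicate 3, and 0.102 for the second, without fibroblast vehicle male replicate 4, and RLE scaling and library sizes alone also ended the second (0.0503 and 0.0567).

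Ctgf, the target gene, showed the largest PTX change of the 10 in immune cells. It read 10.2, 8.16, 6.38 and 41.5 CPM in vehicle females, 58.8, 115, 64.8 and 56.3 CPM in vehicle males and 1.03, 0.652, 0.726 and 0.749 CPM in PTX males. The PTX libraries lay within a narrow band below all 8 vehicle libraries. Against vehicle males the change was -6.62 ± 1.06 SE on the log2 scale (edgeR adjusted p = 0.00661), from 73.6 ± 27.5 to 0.79 ± 0.168 CPM, and against vehicle females -4.43 ± 0.96 SE (adjusted p = 0.037). Without each of the 8 libraries compared in turn the change was -6.84 to -6.39, and the adjusted p was at most 0.0294. DESeq2 gave no adjusted p for this gene, and limma voom with quality weights did not call it (adjusted p = 0.232).

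Markers of other cell types moved with Ctgf in these 12 libraries. Between vehicle and PTX males, 5 of 8 fibroblast, 6 of 8 endothelial, 3 of 8 pericyte and smooth muscle, 2 of 8 keratinocyte and 3 of 7 tested skeletal muscle markers were called lower, and 0 of these lists' genes higher. Summed endothelial markers were 55.1 to 165 CPM in vehicle females, 155 to 637 CPM in vehicle males and 0.375 to 40.3 CPM in PTX males, where Kdr and Emcn were at 0. Pericyte and smooth muscle markers were 162 to 755, 342 to 2306 and 2.78 to 44.4 CPM. Keratinocyte markers were 21.2 to 138, 95.5 to 2179 and 0.749 to 28.9 CPM, with Trp63 and Krt1 at 0 in PTX males. Summed fibroblast markers had a median of 809 CPM in PTX males and 211 CPM in vehicle females, the reverse of the order of Ctgf in these groups. The part of other cells in the immune Ctgf level was not tested.

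**Figure D4:**
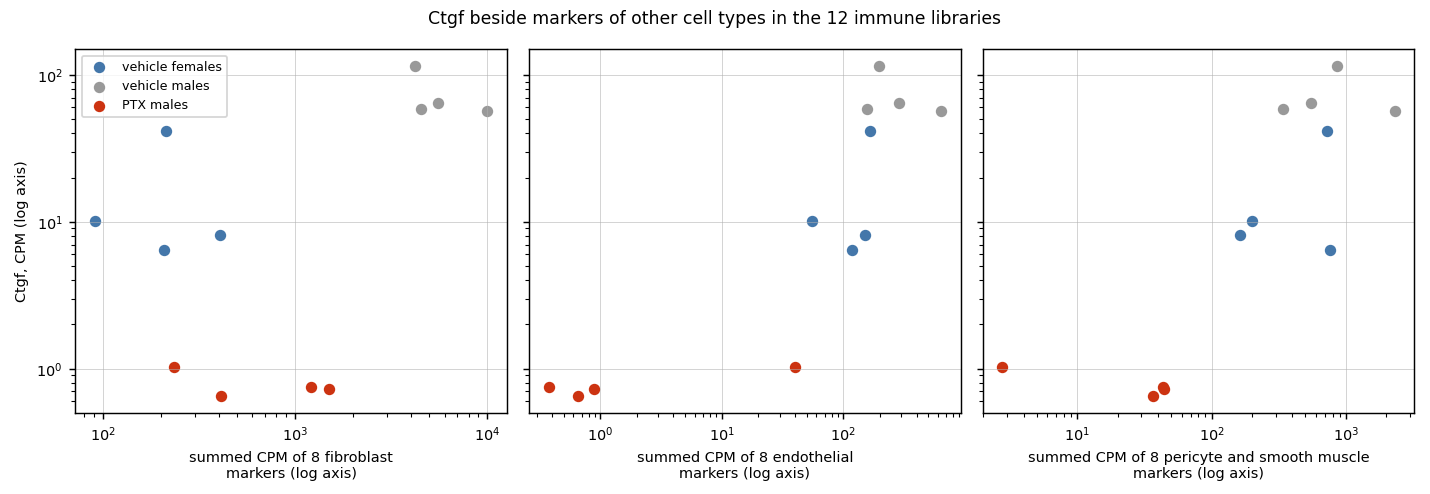
Ctgf (y axis, CPM, log scale) against the summed CPM of 8 markers of fibroblasts, endothelial cells, or pericytes and smooth muscle (x axes, log scale) in the 12 immune libraries, coloured by group. The 4 PTX libraries lie at 0.652 to 1.03 CPM of Ctgf, at 234 to 1505 CPM of fibroblast markers (overlapping vehicle females at 90.7 to 407) and at 0.375 to 40.3 CPM of endothelial markers (below every vehicle library).

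Fibroblasts held Ctgf at 496, 469, 493 and 740.3 CPM in vehicle females, 869.8, 628, 711 and 663 CPM in vehicle males and 669.6, 632, 354 and 281 CPM in PTX males. Replicates 3 and 4 of the PTX males lay below all vehicle libraries, and the change was -0.57 ± 0.34 SE (edgeR adjusted p = 0.792). Keratinocytes held 179.7, 65.4, 61.2 and 179 CPM, then 119, 0.152 and 72.7 CPM, then 133, 351, 72.3 and 27.5 CPM, with overlapping groups (1.24 ± 1.35 SE, adjusted p = 0.895). Fibroblasts exceeded keratinocytes in vehicle skin, 634 ± 141 against 96.7 ± 66.1 CPM (2.91 ± 0.66 SE, adjusted p = 0.000872), with no overlap.

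The PTX change itself differed between populations for 3 genes. Between immune cells and fibroblasts, 3 of 10 interaction terms were called, all negative, where 3.51% of 13329 genes were called and 3.15% negative: Tgfb2 -5.22 ± 1.03 SE (edgeR adjusted p = 0.0025), Tgfb3 -6.78 ± 1.23 SE (0.00104) and Ctgf -5.91 ± 0.76 SE (1.6e-05). Each was called without any 1 of the 16 libraries. Between immune cells and keratinocytes, 2 of 10 were called where 9.6% of 13829 genes were: Ctgf, -7.72 ± 1.89 SE (adjusted p = 0.0114), and Tgfb2 (adjusted p = 0.00767). Between fibroblasts and keratinocytes 1 of 10, Tgfb2, was called (adjusted p = 0.00149), where 3.31% of 13084 genes were. The size of both keratinocyte terms of Tgfb2 depends on the prior count, since vehicle males held 1 read. Markers of fibroblasts, of endothelial cells, and of pericytes and smooth muscle also had called terms in each of these comparisons, all negative. The part of these cells in the terms of the 3 genes was not tested. The immune and fibroblast Tgfbr2 changes were not called different (0.51 ± 0.41 SE, adjusted p = 0.647).

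Vehicle females and males were not called different in any of the 10 genes by edgeR in any population, nor by DESeq2 in the genes it adjusted, which left out Ctgf in immune cells and Smad7 in keratinocytes. Over all genes edgeR called 0.354% in immune libraries, 0.0184% in fibroblast libraries and 0.00914% in keratinocyte libraries. Unadjusted p-values under 0.05 were 1, 0 and 1 of 10 in the same order, Ctgf in immune cells (-2.19 ± 0.87 SE for females minus males, edgeR adjusted p = 0.791) and Smad7 in keratinocytes. Immune Ctgf and Tgfb2 were lower in all 4 females than in all 4 males, where 4.67% of genes were, and 5 of 8 fibroblast markers were called lower and 5 of 8 mast cell markers higher in the same females. Fibroblast Tgfb2 was higher in all 4 females than in all 4 males (0.66 ± 0.35 SE, edgeR adjusted p = 1), where 2.05% of genes were.

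The wider pathway was read through 74 genes in 6 lists, all found in the files. With PTX, edgeR called 11 of 59 tested in immune libraries (4 higher, 7 lower), 0 of 64 in fibroblast libraries and 4 of 63, all higher, in keratinocyte libraries. Over all genes it called 5.51% (0.956% higher, 4.56% lower), 0.0184% and 1.45% in the same order. In the latency and activation list, immune cells rose in Lrrc33 (also Nrros, which anchors latent TGF-beta on myeloid cells; 278 ± 101 to 642 ± 169.8 CPM, 1.1 ± 0.28 SE, edgeR adjusted p = 0.0372) and in Furin (the protease that cuts the ligand precursor; 202 ± 42.9 to 539 ± 173 CPM, 1.3 ± 0.29 SE, 0.0224). Immune cells fell in Ltbp4 (a latent TGF-beta binding protein; 322 ± 65 to 53.2 ± 39.8 CPM, 0.0334) and Fbn1 (fibrillin, which tethers it; 124 ± 43.4 to 2.34 ± 1.47 CPM, 0.00685). That is 2 up and 2 down of 12 tested, with a median log2 change of -1.94 where all genes had 0.1. Summed immune markers were 8694 to 13157 CPM in these PTX libraries against 4807 to 8214 CPM in vehicle males, with 0 of 8 called, and 6 of 8 mast cell markers were called higher. Their part in the genes that rose was not tested.

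Among other ligands of the superfamily Gdf15, a stress-induced cytokine, rose in immune cells (87.7 ± 7.46 to 496 ± 298 CPM, 2.37 ± 0.58 SE, edgeR adjusted p = 0.0333) and Bmp1, a protease of procollagen listed with the ligands by name, fell (31.5 ± 24.1 to 0.685 ± 0.0405 CPM, 0.0356), out of 6 tested with a median of -2.98. Of 11 inhibitors and feedback genes, Fst, which encodes the activin trap follistatin (15.5 ± 13.6 to 0.0614 ± 0.0419 CPM, adjusted p = 0.0255), and Tgif2, a corepressor of Smad transcription (5.67 ± 4.44 to 0.0199 ± 0.0398 CPM, 0.0479), fell, with a list median of 0.28. Of 19 target genes tested, Acta2, smooth muscle actin (429.8 ± 375 to 8.44 ± 14.6 CPM, adjusted p = 0.0224), and Lox, which crosslinks collagen (46.5 ± 17.2 to 0.577 ± 0.334 CPM, 0.0289), fell and Id2, an inhibitor of differentiation (189 ± 13 to 527 ± 254 CPM, 0.033), rose, with a median of -0.78. None of 9 co-receptors (median -0.24) or 2 BMP Smads (median 0.13) was called. Acta2 is also on the pericyte and smooth muscle marker list. The markers that fell beside Ctgf moved with the genes that fell here, and the mast cell markers called higher moved with Gdf15 and Id2. The part of these cells was not tested.

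In fibroblasts 0 genes of the 6 lists were called by edgeR, with medians of -0.55 to 0.47 where all genes had 0.08. The lowest p among the targets was that of Cdkn1a, a cell cycle inhibitor, at 463 ± 125 CPM in vehicle and 1037 ± 277 CPM in PTX males (1.16 ± 0.31 SE, unadjusted p = 0.00144, adjusted p = 0.445). In keratinocyte libraries the target genes Cyr61 (89.8 ± 35.1 to 623 ± 239.6 CPM, 2.88 ± 0.59 SE, adjusted p = 0.0128) and Junb (327 ± 68.8 to 1566 ± 374 CPM, 2.34 ± 0.5 SE, 0.0175) rose, 2 of 20 with a median of 2.31 where all genes had 0.07. Cyr61 encodes a matrix protein of the Ctgf family and Junb an AP-1 transcription factor. Fbn1 (0.147 ± 0.00989 to 303 ± 41.5 CPM, adjusted p = 0.0226; 1 of 15 in its list, median 2.18) and the ligand gene Gdf10 (0.0226 ± 0.0392 to 154 ± 113 CPM, 0.0274; 1 of 5, median 2.87) rose as well. In vehicle skin both were called higher in fibroblasts than in keratinocytes, Fbn1 at 1379.9 ± 135 against 10.6 ± 27.5 CPM (adjusted p = 8.73e-10) and Gdf10 at 792 ± 461 against 0.0446 ± 0.0915 CPM (8.95e-13). The fibroblast, endothelial, pericyte and immune markers of the PTX keratinocyte libraries given above moved with all 4 genes, Cyr61 and Junb included, and their part was not tested. Of 13 inhibitors (median 1.31), 8 co-receptors (0.34) and 2 BMP Smads (5.03) none was called.

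**Figure D5:**
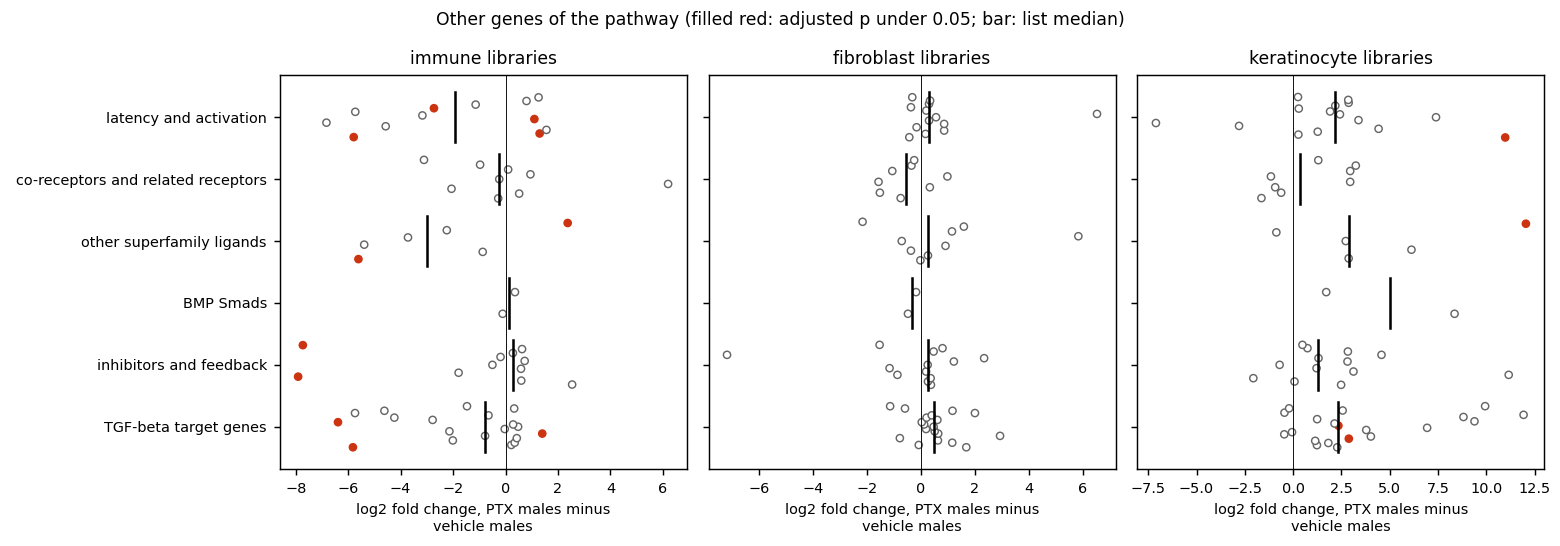
Log2 fold change of PTX males minus vehicle males (x axis) for the tested genes of 6 pathway lists (y axis) in each population, filled red where the edgeR adjusted p was under 0.05, with the list median as a bar. Immune cells have red points on both sides of 0, keratinocytes 4 on the positive side and fibroblasts none; the x axes differ in range.

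In vehicle skin the genes that store and free the ligands differed between populations as well. The counts that follow stand beside 12.2% of all genes higher and 7.22% lower in immune cells than in fibroblasts, and 18.5% higher and 8.96% lower in fibroblasts than in keratinocytes. Of 15 latency and activation genes, 7 were lower and 3 higher in immune cells than in fibroblasts (median -2.58), and 9 were higher and 2 lower in fibroblasts than in keratinocytes (median 3.07). Ltbp4 stood at 4364 ± 615 CPM in fibroblasts against 178 ± 159.9 in immune cells (edgeR adjusted p = 2.72e-11) and 174 ± 123 in keratinocytes (1.7e-09). Lrrc33 stood at 329 ± 104 CPM in immune cells against 1.34 ± 0.924 in fibroblasts (adjusted p = 1.1e-09). Itgb6 and Itgb8, integrin chains that activate latent TGF-beta in epithelium, had no count in vehicle fibroblasts and stood at 16.2 ± 21.9 and 13.2 ± 12.9 CPM in keratinocytes (adjusted p = 0.00464 and 0.0021).

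Of 11 other ligands, 8 were lower in immune cells than in fibroblasts and 9 higher in fibroblasts than in keratinocytes. The median of the second was 6.09, or 5.18 with genes that have no count in a group set at their bound. Tgfbr3, the co-receptor (betaglycan) that presents Tgfb2, stood at 419 ± 135 CPM in fibroblasts, 115 ± 67 in keratinocytes and 27 ± 18.1 in immune cells, each pair called different (adjusted p = 3.4e-07 for immune against fibroblast, 0.0064 for fibroblast against keratinocyte and 0.00166 for immune against keratinocyte). Of 20 target genes, 14 were higher and 1, Id1, lower in fibroblasts than in keratinocytes (median 2.8), and 7 were lower and 0 higher in immune cells than in fibroblasts (median -1.49), beside the same shares of all genes (18.5% and 8.96%, then 7.22% and 12.2%).

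The genes whose levels ran most like a member's over the 35 libraries were found by Pearson's r of log2 CPM among 10926 genes, with no test, and the libraries share their population. Tgfb2 ran with Spon1 (r = 0.96), Abca8a (0.95) and Pdgfra (0.95), the last a fibroblast marker of the list above, and Ctgf with Gas1 (0.93), Osmr (0.92) and Twsg1 (0.92). Tgfb3 ran with Kitl and Cuedc1 (0.9 each), Tgfbr2 with Ier2 (0.88) and Tgfbr1 with Pxk (0.85). Smad3, Tgfb1, Smad4, Smad7 and Smad2 had no gene above 0.76, 0.75, 0.72, 0.72 and 0.7.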

How the data were processed

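Per the labels' protocols, TruSeq stranded mRNA libraries were sequenced in single 50-base reads. The submitters' processing notes name bcl2fastq, TopHat2, HTSeq and the build mm9. Tool versions, the gene annotation and HTSeq's use of strand: not given in the sources used here. Each deposited table holds whole-number counts of reads for 1 library by gene symbol, with no normalization. HTSeq's summary lines (reads in no gene, in several or at several places) entered no total and no test. Reads in genes made up 38.7 to 46% in immune, 35.4 to 52.3% in fibroblast and 19.3 to 27.2% in keratinocyte libraries. The keratinocyte range lay below the others, and its part in the differences between populations was not tested.

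Tests used edgeR 4.0.16 under R 4.3.3 (TMM scaling, filterByExpr, robust glmQLFit, two-sided quasi-likelihood F-test, Benjamini-Hochberg 0.05), each population in a fit of its own for PTX and sex, all 35 libraries in 1 fit for vehicle levels, and 2 populations in 1 fit for interaction terms. The PTX effect in each population and the immune minus fibroblast vehicle and interaction comparisons were tried on simulated data. Changes were planted only in genes above a set mean level, so recovery was not tried for genes read near 0. The sex differences and the vehicle and interaction comparisons with keratinocytes were not simulated. CPM values are scaled over all libraries. Fitted vehicle differences average the log2 levels of both sexes, while the printed vehicle means pool their libraries. The ratio of printed means can thus differ from a fitted change, and widely where a group held few reads. Ratios of summed counts have exact 95% intervals. Exon lengths came from GENCODE vM21 and promoters from RefSeq, both on GRCm38, which is not the build of the counts. Lrrc33 was matched to Nrros by synonym.

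Alternatives were RLE scaling, library sizes alone (chosen after seeing the data), no count filter, DESeq2 1.42.0, limma 3.58.1 voom with quality weights, other controls, 1 sex, a replicate block, and each library left out. The members, the gene lists and the rule for named genes (all 10 members, at most 4 called genes per list and comparison or else the 1 with the lowest p, and the 3 genes most like each member, of which some are given) were chosen with earlier results of these data known. Proteins and the promoters of other members are not used here.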

Additional observations from a re-analysis of the deposited data

Results flagged for a closer look

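Of 79 sets of 4 libraries in which a member could be checked for a lone value, 10 held one far from the others by Dixon's ratio. Chance flags about 1 in 20 where values are normally distributed. CPM were used untransformed, many lay near 0, and all 10 lone values were high ones, so the count cannot be set against that rate. In fibroblasts, Tgfb1 read 8.58 CPM in PTX male replicate 4 against at most 0.478 in the other 3. Smad2 read 46 CPM in vehicle male replicate 3 against 0.144 to 7.06, and 94.1 CPM in PTX male replicate 1 against at most 1.15. Smad7 read 48.3 CPM in vehicle male replicate 4 against 0.09 to 2.77, and Ctgf 740.3 CPM in vehicle female replicate 4 against 469 to 496. In keratinocytes of vehicle females, Tgfb1 read 2.75 CPM in replicate 2, the shallowest library, and 0 in the others, Tgfb2 17.2 CPM in replicate 1 against at most 0.734, and Tgfbr1 16.2 CPM in replicate 1 against 0.175 to 0.549. Immune Ctgf read 41.5 CPM in vehicle female replicate 4 against 6.38 to 10.2, and 115 CPM in vehicle male replicate 2 against 56.3 to 64.8.

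Interaction terms of the PTX change passed in edgeR for Tgfb2, Tgfb3 and Ctgf. Immune cells minus fibroblasts gave -5.22 for Tgfb2 (adjusted p = 0.0025), -6.78 for Tgfb3 (0.00104) and -5.91 for Ctgf (1.6e-05). Immune cells minus keratinocytes gave -7.72 for Ctgf (0.0114) and -15.28 for Tgfb2 (0.00767), and fibroblasts minus keratinocytes gave -10.22 for Tgfb2 (0.00149). Both Tgfb2 terms against keratinocytes depend on the prior count, since keratinocytes of vehicle males held 1 read of Tgfb2. Markers of other cells had called terms in the same comparisons, and the part of these cells was not tested.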

How the results depend on the processing

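The depth of keratinocyte vehicle female replicate 2, 988712 counts, and the many member values under 1 CPM in keratinocytes limit what that population shows, and a shift in the cells sorted and a change in RNA per cell cannot be told apart. Of the members called, Tgfb2 in vehicle immune cells minus keratinocytes alone turned direction under any alternative run, with females alone. The cause of each change below was not tested. Scaling moved the median of all genes in immune cells with PTX from 0.10 with TMM to 0.14 with RLE and -0.25 with library sizes alone.

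The replicate number did not pair the libraries between groups of a population. The correlation used to look for pairing was -0.06 to 0.1 for same-numbered libraries, and 0 to 3 of 3 or 4 were best with their own number. These values concern the pairing and do not measure how alike the libraries are as a whole. With the replicate block, genes called were 148 for PTX in immune cells with 1 member (Ctgf), 24 for sex in immune cells and 1 in fibroblasts, and 268 and 744 for the immune interactions with fibroblasts and keratinocytes. The block turned uncalled values of Tgfb1 (-0.55) and Smad3 (-0.24) for PTX and Smad3 (-0.06) for sex in immune cells, Smad2 (-0.73) for PTX and Smad7 (2.21) for sex in fibroblasts, Smad7 (0.02) for vehicle immune cells minus fibroblasts, and Smad3 (-0.18) and Smad7 (-0.91) in the immune interactions.

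DESeq2 called 1870, 403 and 1339 genes for PTX in immune cells, fibroblasts and keratinocytes, 284, 62 and 553 for sex, and 1758, 3135 and 2064 for the interactions. It called 1 member for PTX in keratinocytes, 8 for vehicle fibroblasts minus keratinocytes, and 5 and 2 in the immune and fibroblast interactions with keratinocytes. In the immune minus fibroblast interaction Smad3 was -0.05 with DESeq2 and with RLE. Limma voom called 38, 0 and 385 genes for PTX and 0, 0 and 1 members, and 4956 genes with 6 members for vehicle immune cells minus fibroblasts and 8 members for fibroblasts minus keratinocytes. Voom turned Smad3 (-0.12) in immune cells, Tgfb2 (-0.02), Smad2 (-0.29) and Smad4 (0.35) in fibroblasts and Smad2 (1.46) and Smad7 (1.92) in keratinocytes for PTX, and in vehicle levels Smad4 (0.59) and Smad7 (0.66) for immune cells minus fibroblasts, Tgfb3 (1.23) and Smad2 (2.8) for immune cells minus keratinocytes and Smad2 (0.27) for fibroblasts minus keratinocytes.

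For PTX in fibroblasts, RLE, library sizes alone and only the compared groups each left 1 gene called, and no count filter gave 4. Library sizes alone gave Smad3 -0.12 for PTX in immune cells and Smad7 0.24 for vehicle immune cells minus fibroblasts. No count filter left 407 genes and 1 member called in immune cells. Against vehicle females, 213 genes were called in immune cells, and uncalled values turned for Smad7 (0.13) there, for Tgfb1 (1.49), Tgfb2 (-0.42), Tgfbr1 (0.71), Smad2 (-0.98), Smad3 (-0.01) and Smad4 (0.48) in fibroblasts and for Smad7 (6.77) in keratinocytes. Against both vehicle groups, 586 genes were called in keratinocytes with Smad7 at 2.34, and fibroblast Tgfb2 and Smad2 were -0.09 and -0.06. Males alone called 701, 1631 and 1997 genes in these vehicle comparisons in the same order, with 2 members for immune cells minus keratinocytes, and turned 1 uncalled value in each, Smad7 (0.11), Ctgf (0.34) and Smad4 (0.15). Females alone called 1420, 2002 and 1800 genes, with 3 members in each comparison with keratinocytes, turned Smad4 (0.19) in the first and turned the called Tgfb2 (-0.26) in the second.

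With each library left out, genes called ran 230 to 954 for PTX in immune cells, 0 to 4 for PTX in fibroblasts, 84 to 148 for PTX in keratinocytes, 12 to 29 for sex in immune cells, 1 to 2 for sex in fibroblasts, 1 to 3 for sex in keratinocytes, 299 to 527 for the immune minus fibroblast interaction and 601 to 1371 for the immune minus keratinocyte interaction. The lowest immune PTX count was without vehicle male replicate 2. Members called ran 1 to 3 for PTX in immune cells, 2 to 6 for vehicle immune cells minus keratinocytes and 1 to 2 for the fibroblast minus keratinocyte interaction. Log2 differences that crossed 0, none of them called as reported, ran as follows. For PTX in immune cells, Tgfb1 ran -0.52 to 1.11, Smad2 ran -1.61 to 0.11 and Smad3 ran -0.16 to 0.52. For PTX in fibroblasts, Tgfb2 ran -0.02 to 0.43, Smad2 ran -4.54 to 3.22 and Smad7 ran -1.07 to 3.98. For PTX in keratinocytes, Smad7 ran -2.61 to 6.81. For sex in immune cells, Tgfbr1 ran -0.23 to 0.12, Smad2 ran -0.24 to 0.44 and Smad3 ran -0.33 to 0.28. For sex in fibroblasts, Tgfb3 ran -0.22 to 0.16 and Smad7 ran -0.65 to 2.77. For sex in keratinocytes, Tgfb1 ran -3.26 to 3.28, Tgfbr1 ran -3.19 to 6.36, Smad2 ran -1.55 to 0.71 and Smad7 ran -9.32 to 0. For vehicle immune cells minus fibroblasts, Smad7 ran -0.66 to 1.39. For vehicle immune cells minus keratinocytes, Tgfb3 ran -1.9 to 2.47. For the immune minus fibroblast interaction, Tgfbr1 ran -0.13 to 1.02, Smad2 ran -3.47 to 4.12, Smad3 ran -0.61 to 0.13 and Smad7 ran -4.69 to 0.28. For the immune minus keratinocyte interaction, Smad2 ran -0.12 to 2.11 and Smad7 ran -7.9 to 3.41. For the fibroblast minus keratinocyte interaction, Tgfb3 ran -8.44 to 0.51, Smad2 ran -2.8 to 5.08, Smad4 ran -0.38 to 1.7 and Smad7 ran -5.98 to 6.12.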
